A study of Mus musculus with 6 samples.

Results

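The DYRK kinases and their close relatives, the HIPK kinases, were followed through an ATAC-seq comparison of mouse liver with and without Dyrk1b overexpression. Members were all peaks that the deposited annotation assigns to Dyrk1a, Dyrk1b, Dyrk2, Dyrk3, Dyrk4, Hipk1, Hipk2 or Hipk3, and 19 of the 22412 peaks in the table met this rule. They belonged to 7 of the 8 genes: 6 to Dyrk1a, 5 to Hipk2, 2 each to Dyrk1b, Dyrk3 and Hipk3, and 1 each to Dyrk2 and Hipk1, while Dyrk4 had 0. There were 3 liver libraries with Dyrk1b overexpression, titled Ad-Dyrk1b, and 3 control liver libraries titled Ad-EGFP, which by that title received the gene of a green fluorescent protein. Ad is the usual prefix of adenoviral vectors, although the labels do not spell it out, so an Ad vector is shared by the Ad-Dyrk1b and the Ad-EGFP libraries. Strain, age, sex, dose and time after delivery are not given in the labels, nor is it said that replicates came from separate animals. The p-values therefore rest on a spread between libraries that may be technical. The series title names glucose control and Wbp2 as the study's subject, and the comparison asks whether raised Dyrk1b goes with changed chromatin at its relatives.

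DYRK kinases are protein kinases that phosphorylate their own activation loop on tyrosine as they fold and then act on serine and threonine of other proteins. Class I, Dyrk1a and Dyrk1b, is largely nuclear and is known for keeping cells out of the cycle, in part through the DREAM repressor complex and cyclin D1. Class II, Dyrk2, Dyrk3 and Dyrk4, is more cytoplasmic. HIPK kinases, named for binding homeodomain proteins, work mostly in the nucleus as transcriptional corepressors and stress kinases, with Hipk2 known for phosphorylating p53. In ATAC-seq a transposase cuts open DNA, so the reads in a peak measure how accessible that stretch is.

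Reads in peaks came to 768418, 891204 and 1267934 in Ad-Dyrk1b libraries 1, 2 and 3, against 855787, 840463 and 762633 in Ad-EGFP libraries 1, 2 and 3. They were a small share of the library totals implied by the deposited RPKM values. That share was 1.669, 2.342 and 2.625% in Ad-Dyrk1b libraries 1, 2 and 3, against 2.22, 1.89 and 1.971% in Ad-EGFP libraries 1, 2 and 3. The level of background reads outside peaks was not measured, so low counts in a peak were not set against it. The median peak held 26 to 47 reads in a library, and member peaks held 1 to 109. All 19 member peaks passed the filter on low counts. The peaks of Dyrk1b did so through the Ad-Dyrk1b libraries, as they held at most 10 reads in an Ad-EGFP library. In whole liver nuclei, a change in the share of a cell type and a change in accessibility per cell cannot be told apart. Of 8 hepatocyte markers 4 had a peak (Alb, Apoa1, Apob and Fgb), which summed to 225 to 244 CPM in Ad-Dyrk1b libraries and 200 to 322 CPM in Ad-EGFP libraries. CPM here is a peak's share of all reads in peaks, scaled to 1000000 after TMM normalisation, a step that lines up the bulk of peaks between libraries. No cholangiocyte marker of the 4 examined had a peak.

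Of the member peaks, 7 lay within 3 kb of the deposited start of Dyrk1a, Dyrk2, Dyrk3, Hipk1 or Hipk3, and 1 each at Dyrk2, Hipk1 and Hipk3 spanned that start. None of the peaks assigned to Dyrk1b or Hipk2 lay within 3 kb of theirs. RefSeq promoter windows are shown for Dyrk1b and for 3 relatives described below, as background on the genes. They come from RefSeq (GRCm38.p6, 5′ to 3′ on the gene's strand, from 250 bases before to 50 after a start), with every CG dinucleotide in capitals. The deposited peaks use other starts and positions, so whether a peak lies over any of these windows was not checked. The windows are those of Dyrk1b (chr7:28179233-28179532, plus strand), Dyrk2 (chr10:118868854-118869153, minus strand), Hipk1 (chr3:103791512-103791811, minus strand) and Hipk2 (chr6:38876141-38876440, minus strand).
Dyrk1b: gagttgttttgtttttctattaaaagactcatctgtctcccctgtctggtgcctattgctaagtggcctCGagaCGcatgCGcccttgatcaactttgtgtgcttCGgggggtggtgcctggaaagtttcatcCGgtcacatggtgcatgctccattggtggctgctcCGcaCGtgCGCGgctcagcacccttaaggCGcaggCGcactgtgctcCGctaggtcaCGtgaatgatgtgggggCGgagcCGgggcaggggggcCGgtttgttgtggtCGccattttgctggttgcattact
Dyrk2: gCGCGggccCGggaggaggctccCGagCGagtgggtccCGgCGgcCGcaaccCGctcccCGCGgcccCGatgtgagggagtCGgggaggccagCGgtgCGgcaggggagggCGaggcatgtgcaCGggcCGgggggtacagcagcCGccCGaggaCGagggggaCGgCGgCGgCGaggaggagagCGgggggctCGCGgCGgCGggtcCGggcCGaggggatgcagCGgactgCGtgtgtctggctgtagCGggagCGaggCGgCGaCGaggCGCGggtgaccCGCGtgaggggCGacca
Hipk1: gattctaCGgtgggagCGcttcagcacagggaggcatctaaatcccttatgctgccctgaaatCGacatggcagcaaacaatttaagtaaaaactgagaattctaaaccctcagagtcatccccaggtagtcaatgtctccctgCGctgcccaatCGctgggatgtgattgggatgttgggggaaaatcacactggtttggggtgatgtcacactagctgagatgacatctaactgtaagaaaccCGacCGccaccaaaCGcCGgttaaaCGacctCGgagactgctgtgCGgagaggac
Hipk2: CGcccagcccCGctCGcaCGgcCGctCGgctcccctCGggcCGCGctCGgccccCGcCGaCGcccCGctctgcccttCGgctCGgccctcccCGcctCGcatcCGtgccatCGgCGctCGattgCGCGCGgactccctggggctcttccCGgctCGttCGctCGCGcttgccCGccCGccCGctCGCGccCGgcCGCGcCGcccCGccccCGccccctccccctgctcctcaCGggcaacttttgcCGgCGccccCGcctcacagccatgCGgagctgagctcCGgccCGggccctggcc
The Dyrk1b window held 17 CG dinucleotides, that of Dyrk2 44, that of Hipk1 12 and that of Hipk2 48. The other windows held 54 (Dyrk1a), 42 (Hipk3), 32 (Dyrk3) and 5 (Dyrk4), and the median over 32851 RefSeq windows of the same length was 7. Where RefSeq lists several starts, the window shown is the one nearest the outer end of the gene, and the others differed: 31 CG at the other start of Hipk1, 31 at that of Dyrk1b, 1 at that of Hipk2, and 30 and 3 at those of Dyrk1a. GGGCGG, searched on both strands, was found in the outermost windows of Dyrk1a, Dyrk1b, Dyrk2, Hipk2 and Hipk3, as in 35.7% of all windows, and TATAAA, also on both strands, in none of the 8, as in 13.6% of all.

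Reads at Dyrk1b, the overexpressed kinase, were higher with overexpression. Summed over its 2 peaks, Dyrk1b held 60, 58 and 92 reads in Ad-Dyrk1b libraries 1, 2 and 3, against 19, 10 and 12 in Ad-EGFP libraries 1, 2 and 3. Each Ad-Dyrk1b library stood above each Ad-EGFP library. On the scale of the gene sums these were 88.9, 71.5 and 79.5 CPM in Ad-Dyrk1b libraries, against 24.5, 13.4 and 17.7 CPM in Ad-EGFP libraries. Dyrk1b rose 4.26-fold (95% interval 2.77 to 6.55), a log2 change of 2.09 ± 0.31 (SE, n = 3 libraries a group), with an adjusted p of 7.74e-05 by edgeR's quasi-likelihood test with Benjamini-Hochberg adjustment over 10609 genes, and the lowest p of all of them. Of these genes 21, or 0.198%, were called at an adjusted p under 0.05, 11 higher and 10 lower, and Dyrk1b was the only member among them. The call held in all 15 alternative analyses, with adjusted p from 2.51e-05 to 0.00767. All 15 reuse the same 2 peaks, which passed the filter for single peaks through the Ad-Dyrk1b libraries, where they were high. The alternatives are therefore not separate evidence for the rise.

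**Figure D1:**
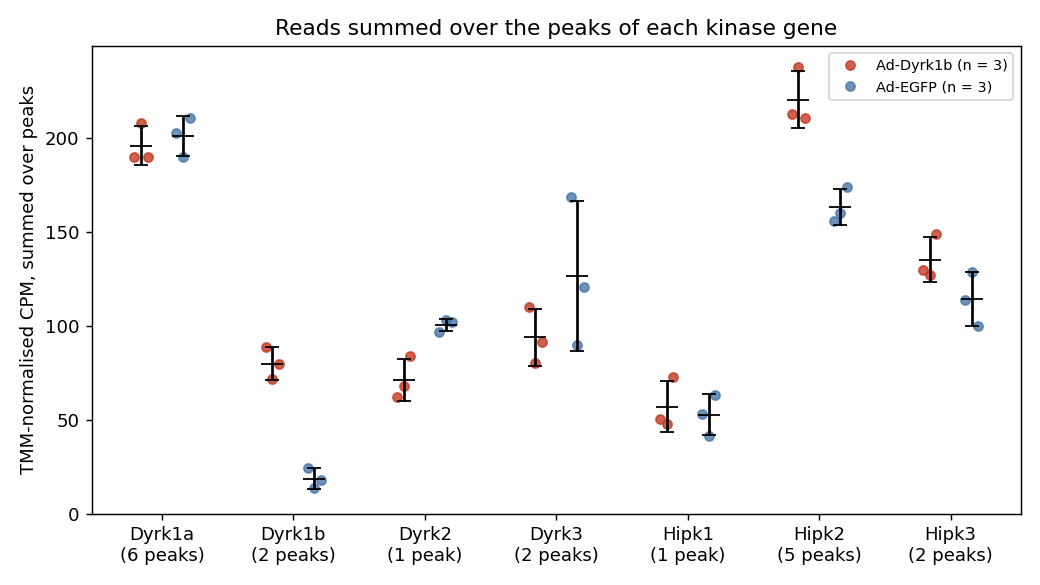
TMM-normalised CPM summed over the peaks of each kinase gene (vertical axis), with a point per library, the mean and the SD as a bar, for Ad-Dyrk1b libraries (left of each pair, n = 3) and Ad-EGFP libraries (right, n = 3). Dyrk1b sat at 71.5 to 88.9 CPM in Ad-Dyrk1b libraries, against 13.4 to 24.5 CPM in Ad-EGFP libraries, and Hipk2 and Dyrk2 were the other genes of the 7 whose groups did not overlap, as was so for 20.4% of all gene sums.

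The Dyrk1b reads lay in late exons. The first peak lay in exon 9 of 11 (chromosome 7, 27885144 to 27885495, build not named, 6.4 kb past the start) and the second in exon 11 of 11 (27885967 to 27886297, 7.2 kb past it), 471 bases apart. In the exon 9 peak Ad-Dyrk1b libraries 1, 2 and 3 held 27, 30 and 53 reads, against 10, 1 and 3 reads in Ad-EGFP libraries 1, 2 and 3. Levels were 36.4 ± 3.84 CPM in Ad-Dyrk1b libraries and 5.63 ± 5.42 CPM in Ad-EGFP libraries (SD, n = 3 each). The spread among Ad-EGFP libraries was as wide as their mean, since library 2 had 1 read and library 1 had 10. A count of 1 is the lowest deposited in any library. The exon 9 peak rose by 2.64 ± 0.50 on the log2 scale, which was the highest log2 change of the 22051 peaks tested, with an adjusted p of 0.00981 by edgeR. Without Ad-EGFP library 1, the highest of its group, the log2 change was 3.77. With reads of 1 taken as 0 it was 2.75 (adjusted p = 0.0201 by edgeR). The peak passed the filter on low counts through the Ad-Dyrk1b libraries, where it was high.

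In the exon 11 peak Ad-Dyrk1b libraries 1, 2 and 3 held 33, 28 and 39 reads, against 9, 9 and 9 reads in the Ad-EGFP libraries. Here, too, the groups did not overlap, and the Ad-EGFP libraries were close to each other. The log2 change was 1.61 ± 0.42 (fold 3.06, 95% interval 1.71 to 5.48), the 8th highest among 1715 exonic peaks, with an adjusted p of 0.107 by edgeR over all peaks, which did not pass. The exon 9 peak was thus the 1 member called, where 7 of 22051 peaks, or 0.0317%, were called in all, 2 higher and 5 lower. The call at exon 9 was lost without Ad-Dyrk1b library 3 (adjusted p = 0.167 by edgeR), Ad-EGFP library 2 (0.114) or Ad-EGFP library 3 (0.0881), after loess normalisation (0.0564) and with limma-trend (0.0669). In the authors' deposited table the log2 ratio of mean RPKM was 2.78 at exon 9 with an FDR of 0.0652, and 1.76 at exon 11 with an FDR of 0.272.

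A vector that carries the Dyrk1b coding sequence adds reads that align to exons of the gene, and such reads and reads from the gene's own chromatin cannot be told apart in these counts. Both Dyrk1b peaks were exonic, in exons 9 and 11 of 11. The table had 0 peaks of Dyrk1b in its other exons, in introns or at its promoter. The nearest peak of another gene before them, at the promoter of Fbl, lay 16.7 kb away with a log2 change of 0.03 ± 0.35. The nearest one after them, in an exon of Eid2b, lay 90.8 kb away with a log2 change of -0.18 ± 0.38. Neither neighbour passed (adjusted p 0.978 and 0.857 by edgeR). The median log2 change of all 1715 exonic peaks was 0.01.

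Within each library the Dyrk1b reads can be set against those of its relatives, which needs no scaling between libraries. Per 100 reads in the 17 peaks of the other kinases, Dyrk1b had 11.8, 9.29 and 9.96 reads in Ad-Dyrk1b libraries 1, 2 and 3, against 3.1, 1.88 and 2.29 reads in Ad-EGFP libraries 1, 2 and 3. The relatives themselves held 664, 700 and 729 of each 1000000 reads in peaks in Ad-Dyrk1b libraries, against 716, 633 and 686 in Ad-EGFP libraries, and these ranges overlapped.

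**Figure D2:**
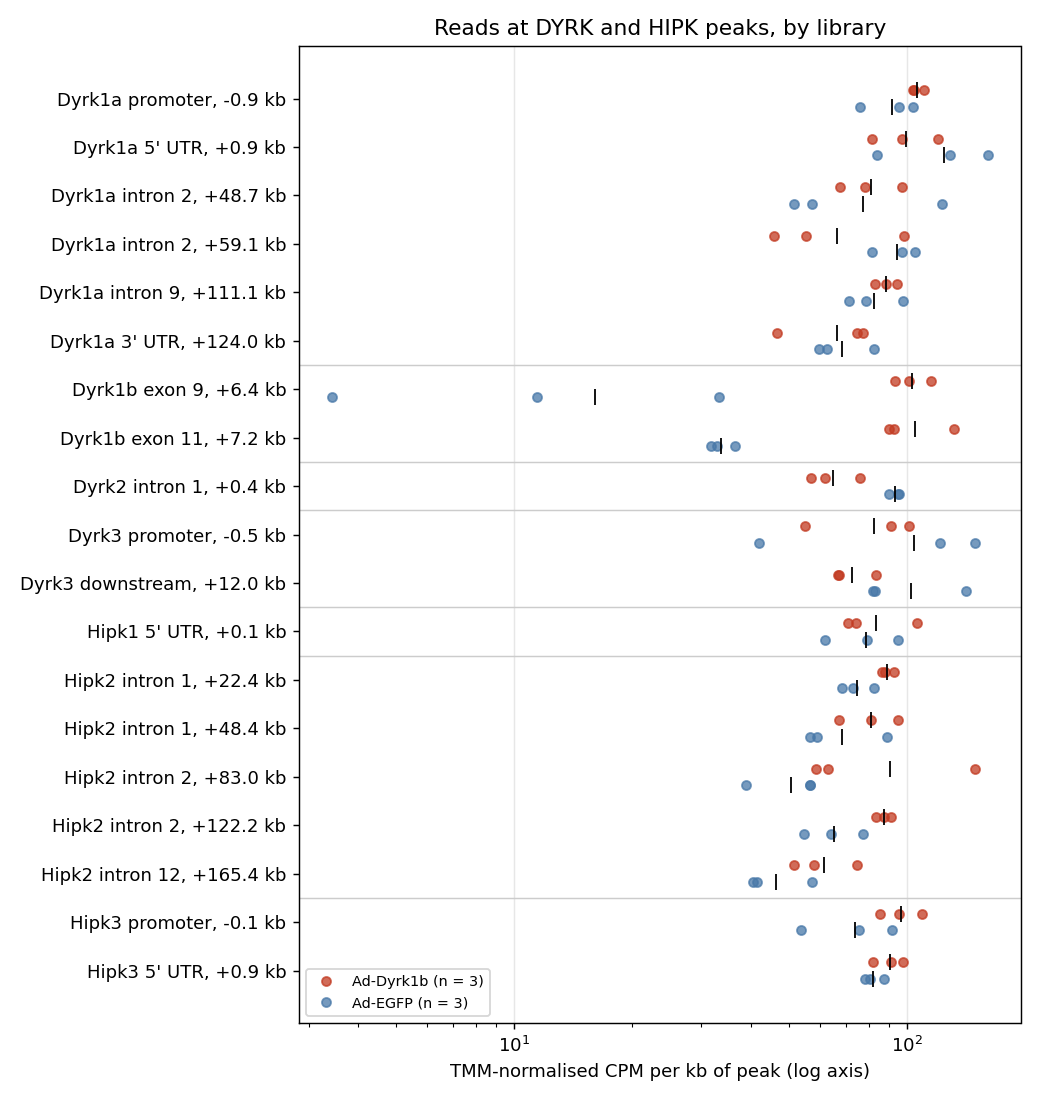
Reads at each of the 19 peaks (rows, with the deposited distance from the start of its gene) as TMM-normalised CPM per kb of peak on a log axis, with a point per library and a tick at the mean, for Ad-Dyrk1b libraries (upper row of each pair, n = 3) and Ad-EGFP libraries (lower row, n = 3). The groups stand widely apart at the peaks in exons 9 and 11 of Dyrk1b and lie close or overlap at the other kinases.

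Per length, Dyrk1b stood at opposite ends of the order of the genes in the 2 groups. In Ad-Dyrk1b libraries Dyrk1b was the highest of the 7 genes, at 104 ± 11.5 CPM per kb (SD, n = 3), followed by Hipk3 (92.5), Dyrk1a (84.5), Hipk1 (83.6), Hipk2 (81.0), Dyrk3 (74.8) and Dyrk2 (65.1 CPM per kb). Each gene in this order overlapped the next in its range over the 3 libraries. In Ad-EGFP libraries the order was Dyrk3 (103 ± 32.5 CPM per kb), Dyrk2 (93.5), Dyrk1a (88.4), Hipk3 (79.3), Hipk1 (78.6), Hipk2 (61.0) and, lowest, Dyrk1b (24.6 ± 7.44 CPM per kb). Only the last step, between Hipk2 and Dyrk1b, was free of overlap there. The Dyrk1b values rest on 2 late-exon peaks, which held 1 to 10 reads each in Ad-EGFP libraries. Those of the relatives rest on promoter, UTR, intron and downstream peaks. The order therefore compares peaks of unlike kinds and does not rank how accessible the genes are in control liver.

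Dyrk1a, the closest paralog of Dyrk1b, had no called change at any of its peaks or in their sum. Its 6 peaks ran along the gene on chromosome 16, from a promoter peak 930 bases before the start (94369737 to 94370142) through a 5′ UTR peak and peaks in introns 2 (a pair) and 9 of 11 to the 3′ UTR (94494643 to 94495067). Their sum was 190, 208 and 190 CPM in Ad-Dyrk1b libraries 1, 2 and 3, against 203, 190 and 211 CPM in Ad-EGFP libraries 1, 2 and 3. The groups overlapped, and the log2 change of -0.04 ± 0.15 had a 95% interval from -0.34 to 0.26, or 0.791-fold to 1.2-fold (adjusted p = 0.927 by edgeR). Single peaks had log2 changes from -0.47 ± 0.38, at the second intron 2 peak, to 0.21 ± 0.29, at the promoter. At that promoter peak the groups did not overlap but lay close, with 42.3, 45.0 and 42.1 CPM in Ad-Dyrk1b libraries and 42.0, 38.7 and 30.8 CPM in Ad-EGFP libraries (adjusted p = 0.765 by edgeR).

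Dyrk2, a class II kinase known for phosphorylating p53 and for its part in a ubiquitin ligase complex in human cells, had lower values with overexpression that did not pass the test. Its peak (chromosome 10, 118705260 to 118706233) spanned the start and reached into intron 1 of 1. It held 55.5, 60.4 and 74.2 CPM in Ad-Dyrk1b libraries 1, 2 and 3, against 87.6, 93.2 and 92.4 CPM in Ad-EGFP libraries 1, 2 and 3. All Ad-Dyrk1b libraries were below all Ad-EGFP libraries, and this was the 1 member peak of 19 so ordered, against 9.97% of all peaks. The log2 change was -0.51 ± 0.22, with an unadjusted p of 0.0279 and an adjusted p of 0.303 by edgeR. With library totals taken from the RPKM columns, which moves the median of all peaks by 0.17, it was -0.32.

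Dyrk3, a class II kinase known for dissolving stress granules in human cells, had a promoter peak (chromosome 1, 131066435 to 131066694, 487 bases before the start) and a peak downstream of the gene (131053578 to 131054432). The downstream peak held 71.4, 57.1 and 57.4 CPM in Ad-Dyrk1b libraries 1, 2 and 3, against 121, 70.2 and 71.0 CPM in Ad-EGFP libraries 1, 2 and 3. Ad-Dyrk1b library 1 lay above Ad-EGFP libraries 2 and 3, so the groups overlapped. The log2 change was -0.51 ± 0.24 (unadjusted p = 0.0336, adjusted p = 0.319 by edgeR) and was -0.20 without Ad-EGFP library 1, the highest library. The promoter peak was shallow, with 9 to 31 reads a library, and had a log2 change of -0.33 ± 0.41 (adjusted p = 0.731 by edgeR). Dyrk4, the other class II kinase, had no peak in the table and could not be compared.

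Hipk2 had the most reads of the HIPK genes, all from introns. Its 5 peaks lay on chromosome 6 in intron 1 (a pair), intron 2 (a pair) and intron 12 of 14, between 22.4 and 165.4 kb past the start. Summed, they held 213, 238 and 211 CPM in Ad-Dyrk1b libraries 1, 2 and 3, against 156, 160 and 174 CPM in Ad-EGFP libraries 1, 2 and 3. The groups did not overlap. The log2 change of the sum was 0.43 ± 0.15 (fold 1.35, 95% interval 1.09 to 1.67), with an unadjusted p of 0.00598 and an adjusted p of 0.159 by edgeR over all genes, which did not pass. Over the 15 alternatives it lay between 0.38 and 0.58 with adjusted p from 0.126 to 0.724.

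All 5 Hipk2 peaks had positive log2 changes, from 0.26 ± 0.29 to 0.83 ± 0.35. Of 232 genes with 5 tested peaks, 17, or 7.33%, had all 5 positive. The largest value was at the nearer of its intron 2 peaks, 83.0 kb past the start (38769849 to 38770297), where Ad-Dyrk1b libraries 1, 2 and 3 held 20, 61 and 37 reads, against 15, 21 and 19 reads in Ad-EGFP libraries 1, 2 and 3. In CPM this was 26.4, 67.0 and 28.3 in Ad-Dyrk1b libraries, against 17.5, 25.4 and 25.4 in Ad-EGFP libraries, so library 2 stood apart and the other Ad-Dyrk1b libraries were just above the Ad-EGFP ones. The peak did not pass (unadjusted p = 0.0226, adjusted p = 0.29 by edgeR), and without Ad-Dyrk1b library 2 its log2 change was 0.27. The further intron 2 peak, 122.2 kb past the start, held 34.4, 32.9 and 31.4 CPM in Ad-Dyrk1b libraries, against 29.2, 20.6 and 24.1 CPM in Ad-EGFP libraries, with a log2 change of 0.41 ± 0.35 (adjusted p = 0.59 by edgeR).

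Hipk1 and Hipk3 had peaks at their starts. The Hipk1 peak (chromosome 3, 103698498 to 103699103, 5′ UTR) held 44.9, 42.8 and 64.2 CPM in Ad-Dyrk1b libraries 1, 2 and 3, against 47.9, 37.5 and 57.6 CPM in Ad-EGFP libraries 1, 2 and 3. These ranges overlapped, with a log2 change of 0.11 ± 0.27 (95% interval -0.42 to 0.65). The Hipk3 promoter peak (chromosome 2, 104324706 to 104325153) held 38.3, 42.8 and 48.9 CPM in Ad-Dyrk1b libraries, against 33.9, 41.1 and 24.1 CPM in Ad-EGFP libraries, and the groups overlapped. Its log2 change was 0.40 ± 0.30, and that of the Hipk3 5′ UTR peak (104323445 to 104324299) was 0.14 ± 0.23. None of these 3 peaks passed, with adjusted p from 0.548 to 0.874 by edgeR.

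**Figure D3:**
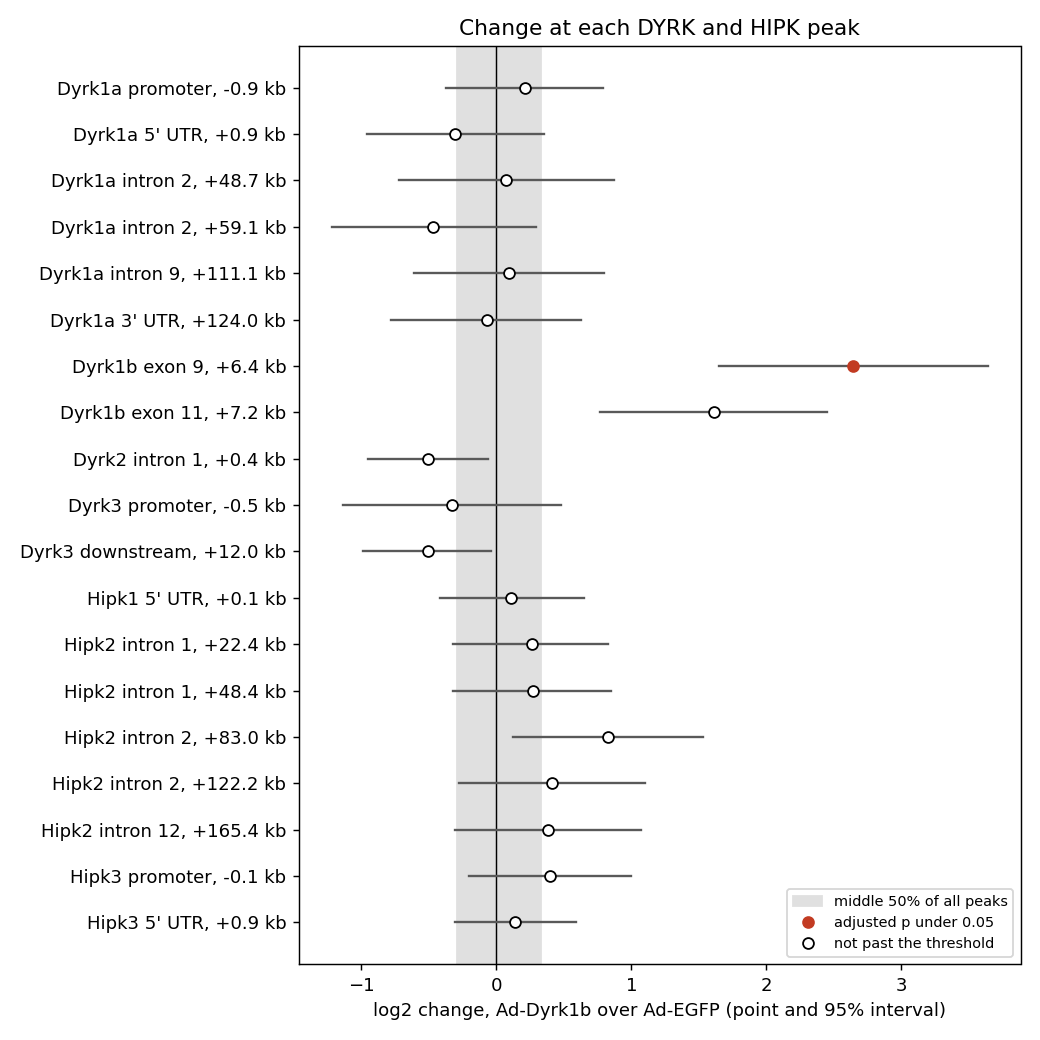
The log2 change (Ad-Dyrk1b over Ad-EGFP, horizontal axis) of each of the 19 peaks with its 95% interval, with the quartile range of all peaks, -0.29 to 0.33, as a grey band. The filled point, Dyrk1b exon 9, is the 1 peak with an adjusted p under 0.05, and the intervals of Dyrk1b exon 11, Dyrk2, the Dyrk3 downstream peak and the Hipk2 peak at 83.0 kb are the others that do not reach 0.

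Set together, the 17 peaks of the relatives held 0 calls by edgeR, limma-trend or DESeq2, which gave an adjusted p to 3 of them. Their log2 changes ran from -0.51 to 0.83 with a median of 0.11 (-0.01 without Ad-EGFP library 2), and 11 were positive and 6 negative, where 50.4% of all peaks were positive with a median of 0.00. The DYRK relatives had 3 positive and 6 negative peaks (median -0.31) and the HIPK genes 8 positive and 0 negative (median 0.32). Of all intron peaks, the class of all 5 Hipk2 peaks, 54.1% were positive, and of all promoter peaks 43.1%. The HIPK count was 8 of 8 under every scaling and 7 of 8 without Ad-Dyrk1b library 3 or Ad-EGFP library 2. Of these 8 peaks 5 belong to Hipk2 and 2 to Hipk3, and peaks of 1 gene are not replicates. Other scalings reuse the same counts. The lowest adjusted p among the relatives was 0.29. At an unadjusted p under 0.05 stood 3 of the 17, where 14.2% of all peaks did. Groups did not overlap at 5 of the 17, against 19.5% of all peaks. Over all relatives, 95% intervals reached from -1.22 to 1.53 on the log2 scale, so at some single peaks a 2-fold change lay within the interval.

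**Figure D4:**
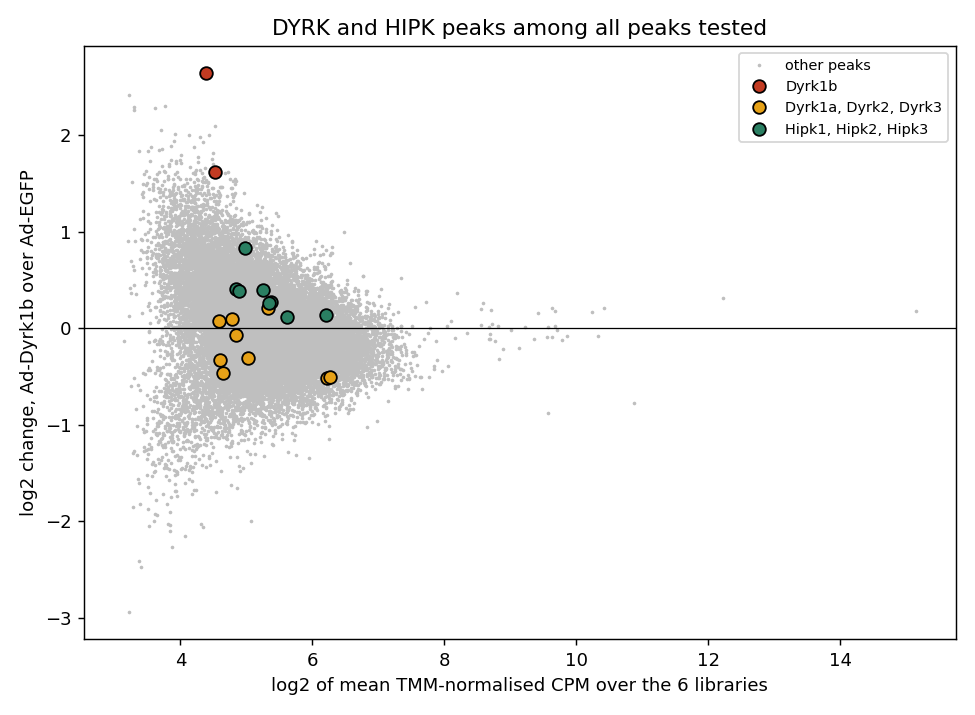
Log2 change (Ad-Dyrk1b over Ad-EGFP, vertical axis) against the log2 of the mean TMM-normalised CPM over the 6 libraries (horizontal axis) for the 22051 peaks tested (grey), with the peaks of Dyrk1b, of the DYRK relatives and of the HIPK genes in colour. Dyrk1b exon 9 is the highest point, at 2.64, and the relatives lie between -0.51 and 0.83, inside the cloud of other peaks.

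Peaks whose pattern over the 6 libraries was most like that of Dyrk1b were named by Pearson's r of log2 CPM, as a description. For the exon 9 peak these were intron peaks of Ypel2 (r = 0.996), Usp33 (0.996) and Cox10 (0.992). For the exon 11 peak they were an intron peak of Maea (r = 0.997), a promoter peak of Spns3 (0.996) and an intron peak of Cav1 (0.995). None of these 6 passed by edgeR (adjusted p from 0.135 to 0.596). The Dyrk1b peaks had an r of 0.869 with each other. Among peaks of other genes, with predicted genes and peaks with no symbol left out, 279 were above 0.9 for exon 9 and 303 for exon 11.

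Proteins that work with these kinases were examined through their own genes. Of 13 listed partners (the scaffold Dcaf7, the subunits of the ligase complex that Dyrk2 joins, Siah ligases, and the Hsp90 chaperones and Cdc37, on which kinases depend for folding) 9 had a peak and 6 a promoter peak, of which 0 were called, with 1 positive and 5 negative log2 changes (median -0.09) and 1 at an unadjusted p under 0.05. The lowest p were at Siah1b, a ubiquitin ligase (28.4 ± 4.67 CPM in Ad-Dyrk1b libraries and 50.4 ± 10.9 CPM in Ad-EGFP libraries, adjusted p = 0.218 by edgeR), and Siah2 (log2 change -0.53 ± 0.34). Among their 11 peaks of any class 1 fell, in intron 1 of 3 of the chaperone gene Hsp90aa1 (chromosome 12, 110662604 to 110663392), to 35 ± 3.88 CPM in Ad-Dyrk1b libraries, against 89.2 ± 7.87 CPM in Ad-EGFP libraries (log2 change -1.35 ± 0.25, adjusted p = 0.00981 by edgeR), where 5 of all 22051 peaks, or 0.0227%, were called lower. The Hsp90aa1 call was lost without Ad-Dyrk1b library 2 or 3 or Ad-EGFP library 3, and with library totals taken from the RPKM columns. The partner list was chosen with earlier results of these data known, and Hsp90 chaperones serve kinases in general. Its 1 call is therefore not a result about partners of DYRK and HIPK kinases.

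Of 27 listed substrates 18 had a promoter peak, with 7 positive and 11 negative log2 changes, a median of -0.04, 0 calls and 0 at an unadjusted p under 0.05. The lowest p were at Myc, a growth-promoting transcription factor gene (44.0 ± 8.95 CPM in Ad-Dyrk1b libraries and 28.3 ± 11.4 CPM in Ad-EGFP libraries, adjusted p = 0.368 by edgeR), and Lin52, the DREAM subunit that Dyrk1a phosphorylates in human cells (log2 change -0.44 ± 0.26). In the DREAM complex 10 of 12 genes had a promoter peak, with 6 positive, 4 negative, a median of 0.15, 0 calls and 1 at an unadjusted p under 0.05. Lin9 (0.82 ± 0.29, adjusted p = 0.209) and Lin54 (0.53 ± 0.27, adjusted p = 0.354, both by edgeR) had the lowest p there. Of the 9 nearest other kinases of the CMGC group 4 had a promoter peak (2 positive and 2 negative, median -0.01, 0 calls, 1 at an unadjusted p under 0.05), with Prpf4b at 0.69 ± 0.33 and Clk3 at -0.21 ± 0.22. Over all 7584 genes with a promoter peak the median was -0.07, with 3227 positive, 4357 negative, 0 called higher, 4 called lower and 997 at an unadjusted p under 0.05.

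Markers of other liver cells were read in the same libraries, since DYRK and HIPK genes are expressed in many cell types. Of 24 such markers 7 had a peak. Their 10 peaks had 8 positive log2 changes, where 50.4% of all peaks were positive. These peaks summed to 382 to 425 CPM in Ad-Dyrk1b libraries and 331 to 387 CPM in Ad-EGFP libraries. Endothelial markers summed to 135 to 163 CPM in Ad-Dyrk1b libraries and 110 to 121 CPM in Ad-EGFP libraries, and the single lymphocyte marker with a peak, Ebf1, had 27.8 to 32.9 CPM in Ad-Dyrk1b libraries and 8.47 to 16.1 CPM in Ad-EGFP libraries. Of the 5 hepatocyte marker peaks 4 were negative. Their sum, 225 to 244 CPM in Ad-Dyrk1b libraries, lay within the 200 to 322 CPM of Ad-EGFP libraries. Macrophage markers summed to 161 to 184 CPM in Ad-Dyrk1b libraries and 163 to 206 CPM in Ad-EGFP libraries, and stellate cell markers to 48.3 to 58.9 CPM in Ad-Dyrk1b libraries and 31.5 to 48.4 CPM in Ad-EGFP libraries. None of these marker peaks was called by edgeR. An unadjusted p under 0.05 stood at 1 of the 5 hepatocyte marker peaks and 3 of the 10 others, where 14.2% of all peaks did. The part of these cell types in the values at the HIPK and DYRK genes was not tested.

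**Figure D5:**
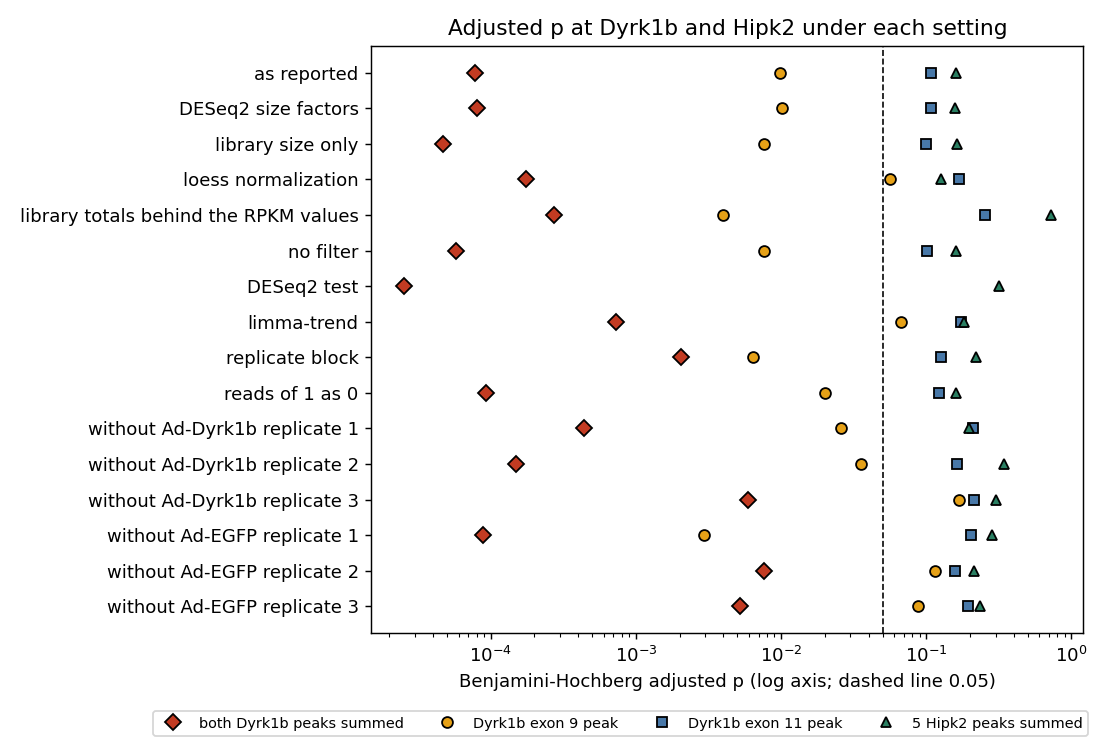
Benjamini-Hochberg adjusted p (log axis, dashed line at 0.05) for the summed Dyrk1b reads, the exon 9 and exon 11 peaks of Dyrk1b and the summed Hipk2 reads, as reported (top row) and under each of 15 alternatives. The Dyrk1b sum stays left of the line in each row, at 0.00767 or lower, the exon 9 peak crosses it in 5 rows, and exon 11 and Hipk2 stay right of it. DESeq2 gave no adjusted p to the single Dyrk1b peaks.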

How the data were processed

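ATAC-seq read counts of 6 liver libraries were analysed, 3 Ad-Dyrk1b and 3 Ad-EGFP. Per the file headers, the authors deposited whole read counts per merged peak and RPKM values, and, per peak, the log2 ratio of group mean RPKM values with its p-value and FDR. Per the submitters' processing notes, Bowtie2, DiffBind and ChIPseeker were used with build mm10. Peak caller, duplicate removal and read shifting: not given in the sources used here. Deposited gene starts lay 23.2 to 300.6 kb from the outer gene ends of GRCm38 for the 7 genes, so peak positions are printed with no build named. RPKM lengths equal end minus start, so starts were raised by 1 to count from 1. No deposited count was below 1, and no library repeated another (chi-square over its degrees of freedom at least 2.19 for each pair).

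The deposited counts went into edgeR 4.0.16 under R 4.3.3 (TMM, filterByExpr, quasi-likelihood, Benjamini-Hochberg adjustment, threshold 0.05, no covariate). The filter left 22051 peaks and removed 361. The same fit was run on reads summed over the peaks of each symbol, leaving out 2602 peaks with no symbol, so CPM of gene sums has a smaller denominator. The fit was tested on simulated data. SE is the log2 change divided by the root of F. Promoter peaks were those classed so or within 3 kb of a start, 1 per gene by highest mean in lists. Alternatives were other scalings, no filter, DESeq2 1.42.0, limma-trend (limma 3.58.1, prior count 2), a replicate block, each library left out and, added after seeing the data, reads of 1 as 0. Named were all member peaks, the 2 promoters with the lowest p and any called peak of each list, and 3 peaks most like each Dyrk1b peak, predicted genes left out. Marker genes named were chosen after their values were seen. Members and lists were chosen with earlier results of these data known.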

Additional observations from a re-analysis of the deposited data

How the results depend on the processing

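The rise of the summed Dyrk1b reads kept its direction and its call under all 15 alternatives, with log2 changes of 1.90 to 2.35 and, with 1 library left out, adjusted p from 8.78e-05 to 0.00767 by edgeR. These alternatives reuse the same Dyrk1b peaks and are not separate evidence. The exon 9 peak of Dyrk1b had 2.24 after loess normalisation and 2.53 with limma-trend, neither called, and 2.17 to 3.77 with 1 library left out. Member peaks called higher were then 0 after loess normalisation and with limma-trend, and 0 to 1 with 1 library left out. DESeq2 gave no adjusted p to 16245 peaks, both of Dyrk1b among them (unadjusted p 1.21e-06 for exon 9 and 0.000257 for exon 11), so it gives no call there.

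Over all peaks, calls higher and lower were 2 and 5. They were 0 higher after loess normalisation, 0 higher and 19 lower by DESeq2, 0 higher and 2 lower by limma-trend, 2 lower with library size only, and 1 higher and 0 lower with the library totals behind the RPKM values. With 1 library left out they ran from 0 to 6 higher and from 0 to 9 lower. Of the peaks with an unadjusted p under 0.05, 54.5% were lower, against 45.2% with library size only and 13% with the RPKM totals. Partner genes had 1 called peak, 0 with the RPKM totals and 0 to 1 with 1 library left out. The cause of these differences was not tested.

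The changes of sign among the kinase peaks and sums were at ones called under no setting. For Dyrk1a, the peak 48.7 kb past the start turned to -0.10 with loess and lay between -0.15 and 0.56 with 1 library left out, the 3′ UTR peak turned to 0.06 and the sum to 0.10 with the RPKM totals, and with 1 library left out the 3′ UTR peak ranged from -0.21 to 0.16 and the intron 9 peak from -0.01 to 0.23. With 1 library left out the Dyrk3 promoter peak ranged from -0.71 to 0.01, the Hipk1 peak from -0.11 to 0.27 and the Hipk1 sum from -0.09 to 0.29.

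Replicate numbers are shared by the groups. Deviations of same-numbered libraries correlated at -0.00979, -0.0144 and 0.0073, against -0.0243 to 0.0322 for the other pairs. No pairing by number was seen in them, and shared handling of same-numbered libraries was not tested. A replicate block left 2 peaks higher and 5 lower, with the Dyrk1b sum at 2.11 (adjusted p = 0.00204 by edgeR).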
